A study of Homo sapiens with 16 samples.

Results

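BMAL1 is a transcription factor that binds DNA together with its partner CLOCK and activates the genes of the circadian clock. The pair recognises a short DNA element, the E-box CACGTG. The pair drives the period and cryptochrome genes, whose products then inhibit it, and CHRONO, which CIART encodes, is a further repressor of the pair. The regions described here are those where a BMAL1 peak was listed around the cycle in both lines of the study, but at neither 8 h nor 12 h. Peaks of the 12 BMAL1 lists that shared at least 1 bp were merged into 20968 regions. A region was a member where it had a peak at 3 or 4 of the times 0, 4, 16 and 20 h in each line, and none at 8 h or 12 h in either line. There were 240 such regions, which was 1.14% of all merged regions and 13.7% of the 1752 regions with 3 or 4 of those times in each line. The other 1512 of the 1752 had a peak in at least 1 of the 4 libraries of 8 and 12 h and are called retained regions. The presence and absence of peaks chose the members, so that pattern, and every comparison of BMAL1 scores with the retained regions, is a description without a test.

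BMAL1 binding was profiled by ChIP-seq, the sequencing of DNA precipitated with an antibody to the factor, in U2OS (the U2OS_WT libraries), a cell line from a human osteosarcoma, and in a line of the same cells labelled U2OS_CHR, which the series design calls U2OS-CHRONO. Cells of both lines received 200 nM dexamethasone, a synthetic glucocorticoid that sets the clocks of cultured cells to a common phase. Collections at 6 time points labelled 0, 4, 8, 12, 16 and 20 h were 4 h apart, and the first preceded by 4 h the low point of luciferase driven by the BMAL1 promoter. One further library was precipitated from the U2OS_CHR line with an antibody to Myc, carries no time or treatment label, and is named Myc-CHRONO in the series design. Whether the antibody met the Myc protein or a Myc tag on CHRONO is not stated, so its peaks are called Myc peaks after the antibody alone. How the U2OS_CHR line was made, and whether it is 1 clone, is not given in the sources used here. There was 1 library per line and time, so the times are the nearest thing to repeats, and 3 input libraries were not analysed here. Peak lists hold no expression values, so the cell type could not be checked against marker genes.

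Read depth is unknown, and the 12 BMAL1 lists differed widely in length. The U2OS_WT list of 8 h stood apart with 337 peaks, while the other U2OS_WT lists held 1808 to 6012. In U2OS_CHR, the shortest list was that of 8 h with 2429 peaks, the next was that of 12 h with 3919, and the others held 5612 to 9391. The times at which the members lack a peak were thus those with the shortest lists of each line. The part of list length in the absence was not separated from that of binding, and the values that bear on it are given with the ranks below. When both 8 h lists were disregarded, the rule gave 282 regions. The 240 members are among them by construction, since leaving out those lists drops a requirement. Without both 12 h lists the rule gave 684.

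**Figure D1:**
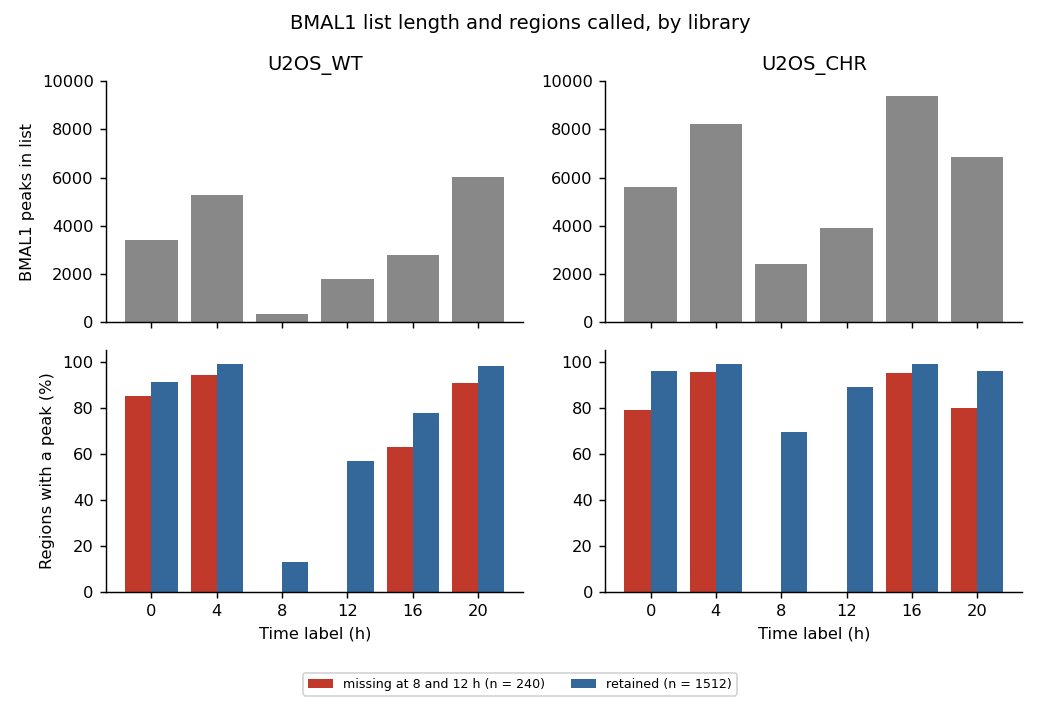
Upper panels show the number of BMAL1 peaks in each list (vertical axis) by time label in hours for U2OS_WT and U2OS_CHR, and lower panels show the percentage of the 240 members (red) and of the 1512 retained regions (blue) with a peak in that list. The rule sets the members at 0 for 8 h and 12 h, which are also the times of the shortest lists in each line.

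The E-box was looked for in RefSeq promoter windows (GRCh38.p14, the same assembly as the peaks' hg38), each holding the 250 bases before a start site and the 50 after it. The stretches below are 30 bases long, 5′ to 3′ on the gene's strand, with the E-box in capitals, and positions count back from the start site. They are shown because they hold the E-boxes of the highest scoring member, of a member among the 8 with the highest Myc score, and of further promoters covered by members. The region at LONP1, the gene of a mitochondrial protease, covers an E-box at -212 and another at -49 of the same promoter. The region at SPG21 covers a tandem pair at -57 and -49, and the region at an internal start of SLC25A26, the gene of the mitochondrial carrier of S-adenosylmethionine, covers E-boxes at -50 and -24. The region at M6PR, which encodes a receptor that carries enzymes to the lysosome, covers an E-box at -80. At KLF11, by contrast, the E-box at -182 lies outside the member and inside a retained region next to it. SPG21, M6PR and DHODH, shown here and below, were chosen after their values were seen.
LONP1 at -212, minus strand, chr19:5720341-5720370: ctcacagccttcCACGTGaccggaaaaggc
LONP1 at -49, minus strand, chr19:5720178-5720207: cgcgccgggcgtCACGTGcgtttcgcggcg
SPG21 at -57 and -49, minus strand, chr15:64989510-64989539: catgtgaccacgCACGTGatCACGTGccct
SLC25A26 at -50, plus strand, chr3:66220939-66220968: tgtctcgcgttgCACGTGcagttgttgtgg
SLC25A26 at -24, plus strand, chr3:66220965-66220994: gtggttctacgtCACGTGgtcccggaagtt
M6PR at -80, minus strand, chr12:8949473-8949502: agtttcccacgaCACGTGagtgtgaggggc
KLF11 at -182, plus strand, chr2:10043635-10043664: ccgcccgcagccCACGTGcggccgctgctg

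The whole 250 bases before the start are shown for a pair of promoters under members, 1 with the E-box and 1 without. DHODH encodes an enzyme of pyrimidine synthesis, and its promoter has an E-box at -159 inside the member. FLCN encodes folliculin, a tumour suppressor that acts in nutrient sensing at the lysosome, and these 250 bases hold no CACGTG. They do hold 1 match to the looser motif CACGNG, where N is any base.
DHODH, plus strand, chr16:72008494-72008743: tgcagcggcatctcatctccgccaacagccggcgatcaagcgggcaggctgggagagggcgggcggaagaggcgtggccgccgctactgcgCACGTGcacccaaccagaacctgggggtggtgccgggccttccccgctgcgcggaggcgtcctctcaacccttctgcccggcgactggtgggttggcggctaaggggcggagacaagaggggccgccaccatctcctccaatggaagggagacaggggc
FLCN, minus strand, chr17:17237169-17237418: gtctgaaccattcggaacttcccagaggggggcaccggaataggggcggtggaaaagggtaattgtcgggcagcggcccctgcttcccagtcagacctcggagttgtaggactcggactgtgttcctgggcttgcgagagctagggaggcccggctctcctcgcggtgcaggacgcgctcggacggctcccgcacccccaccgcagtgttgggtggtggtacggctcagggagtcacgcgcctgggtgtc

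Across the promoters, the E-box was present under many members. Of the 111 promoter windows of genes with an end within 1 kb of a member, 34 held CACGTG on either strand (30.6%, Wilson 95% interval 22.8 to 39.7), against 8.34% of all 22199 windows of protein-coding genes. For genes at retained regions the share was 34.6% (30.9 to 38.4), so the intervals of members and retained regions overlapped. When the windows that a region overlaps were counted in place of those of genes near it, 34 of 86 (39.5%, 29.9 to 50.1) held an E-box under members and 217 of 429 (50.6%, 45.9 to 55.3) under retained regions. Counted by region, 30 of the 64 members over a promoter window had an E-box there (46.9%, 35.2 to 58.9), as did 178 of 320 retained regions (55.6%, 50.1 to 61.0). The intervals cover the counting of windows or regions, which are not replicates, and no test was run. The motif CACGNG includes every CACGTG and was found in 67.4% of the overlapped windows under members, 75.8% under retained regions and 35.2% of all windows.

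For each of the other motifs searched, the intervals of members and retained regions overlapped. The GC box GGGCGG, bound by SP factors, was in 79.1% of the overlapped windows under members, 76.5% under retained regions and 56.3% of all windows. The letters CCAAT, bound by NF-Y, were in 48.8%, 43.1% and 34.7% of the same windows. The CRE TGACGTCA, bound by CREB, was in 7 of 86 windows under members (8.14%, 4.00 to 15.9), 4.20% under retained regions and 2.26% of all windows. The ETS motif CCGGAAG was in 14.0% of the windows under members and 12.8% of all, the NRF1 motif in 12.8% and 7.39%, and the AP-1 motif TGANTCA in 4.65% and 6.15%. The palindromic glucocorticoid response element was found in 0 of 86 windows under members (Wilson 95% interval 0 to 4.28%), in 3 of 429 under retained regions and in 0.293% of all windows. A match is a description of letters in these windows, and the parts of members outside them were not searched. The windows were rich in G and C, with a median share of 65.3% under members, 66.7% under retained regions and 62.3% in all windows, and the part of this in the motif shares was not tested.

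**Figure D2:**
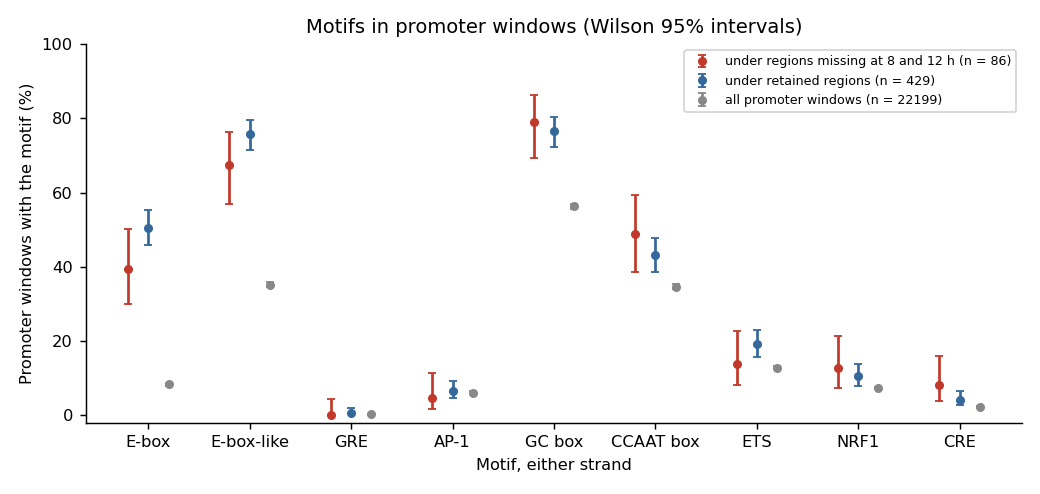
Percentage of promoter windows that hold each motif on either strand (vertical axis), for windows overlapped by a member (red), windows overlapped by a retained region (blue) and all windows (grey), with Wilson 95% intervals. The E-box stands at 39.5% under members, 50.6% under retained regions and 8.34% in all windows, and the red and blue intervals overlap for each of the 9 motifs.

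Members were regions of middling score. The score of a peak is the authors' value, and it was used here as a percentile, the share of peaks in the same list with a lower score. The mean percentile of a member over its peaks had a median of 55.4 (quartiles 46.8 and 64.4, range 21.7 to 80.6). Retained regions had a median of 78.2 (quartiles 67.9 and 89.4). By library, the median percentile of member peaks in U2OS_WT was 52.9 at 0 h, 67.5 at 4 h, 49.9 at 16 h and 64.9 at 20 h. In U2OS_CHR it was 58.1 at 0 h, 62.1 at 4 h, 66.2 at 16 h and 57.1 at 20 h. In each of these 8 libraries the median of the retained regions was higher, between 75.9 and 90.0. Members were also shorter, with a median length of 582.5 bp against 727.5 bp for retained regions. Part of this is set by the rule, since retained regions also take in peaks of the 8 h or 12 h lists. Within single libraries, the median width was 332 to 457 bp for member peaks and 391 to 581 bp for peaks of retained regions. It was lower for members in each of the 8 libraries.

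**Figure D3:**
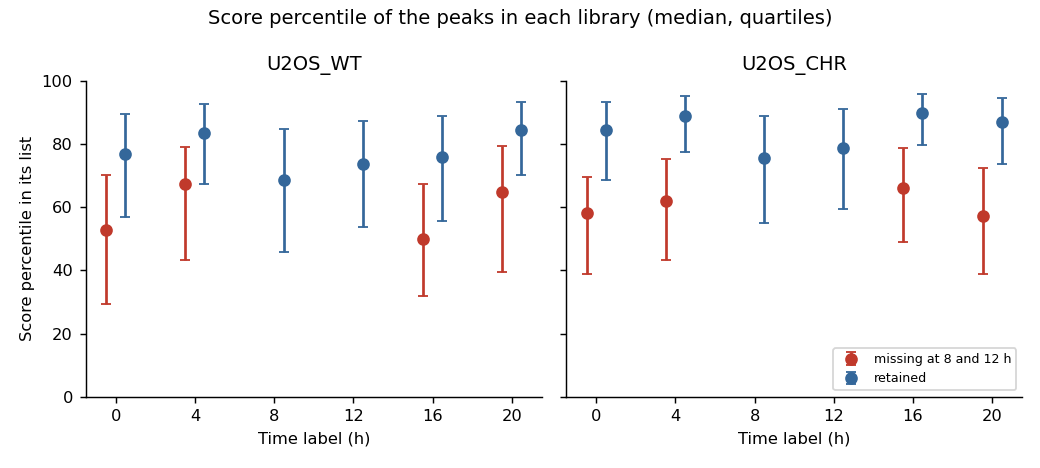
Median score percentile of peaks within their own list, with quartiles as bars (vertical axis, 0 to 100), by time label in hours, for members (red) and retained regions (blue) in U2OS_WT and U2OS_CHR. Member medians lie between 49.9 and 67.5 and those of retained regions at the same times between 75.9 and 90.0, and the rule leaves members without a value at 8 h and 12 h.

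Many members also lacked a peak at 1 of the other times. A peak was listed in all 8 libraries of 0, 4, 16 and 20 h for 38 members, whose mean percentile had a median of 66.6. At 80 members, 1 time was missing in each line, and their median was 49.0. A further 81 had all 4 times in U2OS_CHR but 3 in U2OS_WT, and 41 the reverse. The time most often without a peak was 16 h in U2OS_WT, at 89 members, whereas 16 h lacked a peak in U2OS_CHR at 12. The time least often without one was 4 h, at 14 members in U2OS_WT and 11 in U2OS_CHR.

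The values just inside and outside the rule were as follows. With no peak at 8 or 12 h but 2 times in 1 line, 394 regions fell just short, 308 of them for want of a time in U2OS_WT, and their median percentile was 48.8. On the other side, 367 regions with 3 or 4 times in each line had a peak in 1 of the 4 libraries of 8 and 12 h, and their median percentile was 64.9. That 1 library was U2OS_CHR at 12 h for 235 of them, U2OS_WT at 12 h for 90, U2OS_CHR at 8 h for 42 and U2OS_WT at 8 h for 0. The median rose with the number of such libraries, to 74.8 with 2, 87.3 with 3 and 97.2 with 4.

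The ranks of member peaks were set against the length of the short lists. In U2OS_WT, a rank within the first 337, the length of the 8 h list, was held by 1 member peak at 0 h, 2 at 4 h, 1 at 16 h and 2 at 20 h. Of the retained regions' peaks in those libraries, 21.5% to 27.1% ranked that high. Within the 12 h length of U2OS_WT there were 117 member peaks at 0 h (57.4%), 120 at 4 h (53.1%), 106 at 16 h (70.2%) and 92 at 20 h (42.2%). Nearly all member peaks thus ranked below the 8 h length in U2OS_WT, while a large share ranked above the 12 h length. In U2OS_CHR, 54.7%, 36.2%, 31.6% and 36.5% of the member peaks at 0, 4, 16 and 20 h ranked within the 8 h length, and 64.0% to 81.1% within the 12 h length. For retained regions these shares were 82.0% to 85.9% and 91.3% to 96.1%.

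**Figure D4:**
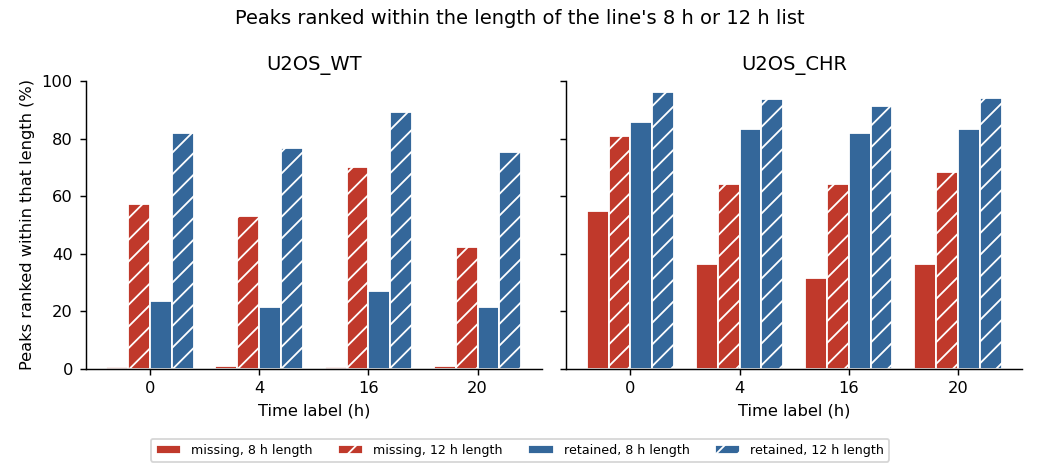
Percentage of peaks at 0, 4, 16 and 20 h that rank within the length of the 8 h list (plain bars) or the 12 h list (hatched bars) of the same line, for members (red) and retained regions (blue). In U2OS_WT the plain red bars are under 1% and the hatched ones between 42.2% and 70.2%.

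Counted by region, 15 of the 240 members (6.25%) had every peak of both lines ranked within the 12 h length of its line, against 748 of the 1512 retained regions (49.5%). The lists of 0, 4, 16 and 20 h were then cut to the 12 h length of their line, with the 8 h lists left at their shorter length. Applied again, the rule gave 38 regions. Each of them was a member, which the cut largely fixes in advance, since it only removes peaks at those 4 times. When all 12 lists were cut to 337 peaks, 0 regions met the rule. With a score of at least 100 required in every list, at 8 h and 12 h too, 121 regions met it, of which 9 were members. The 38 held 9 of the 10 members of the highest percentile, and 22 of them had a peak in all 8 full lists. The cut keeps the peaks of the highest score, so this too follows largely from the cut. Among the members named below, the regions at LONP1, KLF9, MNT and SLC25A26 and the one near FKBP5 met the rule with the lists of those 4 times so cut. Those at CRY2, KLF11, LDHA, FLCN, POLR1A and PFKFB3 did not.

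The members of the highest percentile were led by the region at LONP1. That region (chr19:5719941-5720589, hg38) spans an end of LONP1 and lies within 1 kb of CATSPERD, a subunit of the sperm calcium channel. Its percentile in U2OS_WT was 89.7 at 0 h, 90.4 at 4 h and 53.1 at 16 h, with no peak at 20 h, and in U2OS_CHR it was 80.1, 89.8, 76.9 and 84.3 in the order 0, 4, 16 and 20 h. Apart from the U2OS_WT libraries of 16 and 20 h, its percentile was at least 76.9 in each of these lists, and it overlapped a Myc peak.

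Of the others reported here, 4 lay inside genes and away from their ends. The region in CCDC136 (chr7:128792609-128793313) ranged from a percentile of 55.9 in U2OS_WT at 4 h to 95.6 in U2OS_WT at 20 h. The region in XIRP2 (chr2:167140633-167141246), which encodes an actin-binding protein of muscle, ranged from 62.2 in U2OS_CHR at 0 h to 92.6 in U2OS_WT at 0 h. The others of this kind were in PRDM1, the gene of the repressor BLIMP1, with a mean percentile of 77.4, and in ADORA2B, an adenosine receptor gene, with 76.0. The regions at ends of the zinc-finger genes ZNF131 and ZNF778 had 77.0 and 75.7. The remaining pair lay outside genes, 23.0 kb from the nearest gene end, that of STXBP4, with 76.8, and 35.5 kb from that of FAM241B, with 76.2. At gene ends lay 3 of the 10 members of the highest percentile.

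The 3 members of the lowest mean percentile were in ARHGEF28, with 21.7, near MTNR1A, a melatonin receptor gene, with 23.8, and in SIN3A, the scaffold of a histone deacetylase corepressor, with 26.0. At SIN3A (chr15:75453835-75454362) the percentile was 45.1 at 0 h, 39.7 at 4 h and 56.6 at 16 h in U2OS_WT, but 4.38 at 4 h, 3.03 at 16 h and 7.32 at 20 h in U2OS_CHR. The values of the lines did not overlap there.

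With all scores pooled, members lay at ends of genes about as often as retained regions. A gene end, 1 kb to either side of either end of a protein-coding gene, was met by 77 of the 240 members (32.1%, Wilson 95% interval 26.5 to 38.2), by 29.8% of the retained regions (27.6 to 32.2) and by 19.5% of all merged regions. Among regions of mean percentile under 50, the share was 28.6% of members and 20.0% of retained regions. Between 50 and 60 it was 28.1% and 23.8%, between 60 and 70 it was 33.9% and 24.8%, and between 70 and 80 it was 44.8% and 31.2%. In each of these bands the share of members was the higher, and the intervals overlapped. Above 80 there was 1 member, and the retained regions had 33.1%. Inside a gene, ends included, lay 62.9% of members, 60.6% of retained regions and 54.3% of all. Away from both genes and gene ends lay 32.5% of members, 36.6% of retained regions and 42.0% of all. The median distance to the nearest gene end was 9.13 kb, 11.0 kb and 20.6 kb in the same order. That distance exceeded 50 kb for 25.4% of members, 23.5% of retained regions and 32.8% of all, and lay between 10 and 50 kb for 23.3%, 28.2% and 28.7%. The 77 members met the ends of 92 genes, since 14 of them lay at the ends of 2 or more. They were found on 22 of the chromosomes 1 to 22 and X, with 0 of 14 regions of chromosome 21 that had 3 or 4 times in each line, and 1 neighbouring pair lay within 10 kb.

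Each of the lists examined held 3 or fewer genes with a member. Of 20 core clock genes, 0 had a member at an end and 1, CRY2, had a member in the gene or within 5 kb, where the share of all protein-coding genes was 1.02%. A retained region stood at an end of 12 of the 20, where the share of all genes was 2.71%. Of 18 clock output genes, 2 had a member at an end, KLF9 and KLF11, where the share of all genes was 0.459%, and 2 had a retained region there. Of 22 glucocorticoid-induced genes, KLF9 and FKBP5 had a member in the gene or within 5 kb, and 6 had a retained region there, where the share of all genes was 5.89%. In a list titled Myc target and ribosome biogenesis, 3 of 30 genes had a member (POLR1A, LDHA and MNT) and 9 a retained region. In the same window, 1 of 25 lysosome and autophagy genes had a member (FLCN) and 7 a retained region. Of 20 glycolysis genes, LDHA and PFKFB3 had a member there and 2 had a retained region. For that window the shares of all genes were 1.02% with a member and 5.89% with a retained region. With counts of 3 or fewer per list, these are descriptions of where members lie.

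No member was found in or within 5 kb of 15 clock cofactor and kinase genes, 24 cell cycle genes, 25 cytosolic ribosomal protein genes, 14 osteoblast and bone matrix genes or 14 marker genes of other cell types. The numbers of these genes with a retained region were 0, 1, 1, 0 and 1, in the same order. Since 1.02% of all genes had a member, a count of 0 in lists of this size is near the background.

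CRY2 encodes a cryptochrome, a repressor of BMAL1 and CLOCK. Its member (chr11:45843060-45843850) lies 1036 bp from a retained region that meets the gene's end and had a peak in all 12 lists. The percentile of the member in U2OS_WT was 19.0 at 0 h, 86.8 at 4 h, 75.9 at 16 h and 70.3 at 20 h. In U2OS_CHR there was no peak at 0 h, and the percentile was 2.90 at 4 h, 51.2 at 16 h and 60.9 at 20 h. At each of the 3 times with a peak in both lines the value was lower in U2OS_CHR. The mean percentile was 52.5 for the member and 99.1 for the retained region beside it, whose rank was 6 in U2OS_WT at 8 h.

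KLF9 and KLF11 encode Krüppel-like transcription factors. At the KLF9 end (chr9:70413849-70414542) a peak was listed in all 8 libraries, with percentiles of 80.2, 62.8, 83.9 and 91.7 in U2OS_WT and 56.7, 70.5, 82.1 and 59.2 in U2OS_CHR at 0, 4, 16 and 20 h. The values of the lines overlap, with U2OS_WT higher at 0, 16 and 20 h. A retained region 3602 bp away had a peak in 8 lists, of which 1 was of 8 or 12 h, namely U2OS_CHR at 12 h.

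At KLF11 (chr2:10043718-10044454) the member starts 12 bp past a retained region that had a peak in all 12 lists and a mean percentile of 86.3, against 55.3 for the member. In U2OS_WT the percentile of the member was 73.3 at 4 h, 58.0 at 16 h and 70.3 at 20 h, with no peak at 0 h. In U2OS_CHR it was 39.1, 43.7, 37.6 and 64.9 at 0, 4, 16 and 20 h. By position the member and the retained region adjoin, and the E-box printed above lies in the retained part.

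Genes of metabolism and growth had members at several distances from retained regions. LDHA, which encodes a lactate dehydrogenase subunit, had a member (chr11:18395768-18396333) inside the gene with a mean percentile of 69.2, and 977 bp away a retained region at the gene's end with 95.5. The member's percentile in U2OS_WT was 85.7 at 0 h, 90.7 at 4 h and 63.8 at 20 h, and in U2OS_CHR it was 63.7 at 4 h, 48.4 at 16 h and 62.9 at 20 h. PFKFB3 encodes an enzyme that makes an activator of glycolysis, and its member inside the gene (chr10:6162918-6164176) had percentiles of 66.9, 95.3, 48.8 and 82.0 in U2OS_WT. In U2OS_CHR they were 21.3, 39.9 and 39.6 at 0, 4 and 16 h, below each of the U2OS_WT values, with no peak at 20 h.

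At the end that POLR1A, the largest subunit of RNA polymerase I, shares with PTCD3, the mean percentile of the member (chr2:86105691-86106393) was 47.9, and no retained region lay in POLR1A or within 5 kb. At FLCN the member (chr17:17237003-17237895) had percentiles of 56.9, 82.3, 63.2 and 84.5 in U2OS_WT at 0, 4, 16 and 20 h. In U2OS_CHR they were 32.7 at 0 h, 89.1 at 4 h and 58.2 at 16 h, with no peak at 20 h, so the lines overlapped. The retained region nearest to it in the gene or within 5 kb was 28574 bp away and had a peak in all 12 lists.

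MNT encodes a partner of MAX that represses genes activated by Myc. Its member (chr17:2401423-2401952) had a peak in all 8 libraries, with percentiles of 47.0, 72.1, 44.9 and 39.7 in U2OS_WT and 56.1, 66.5, 65.7 and 54.4 in U2OS_CHR, and it overlapped a Myc peak. FKBP5 encodes a cochaperone of the glucocorticoid receptor. The member within 5 kb of it (chr6:35731749-35732668) lies at an end of ARMC12 and overlapped a Myc peak too. Its percentile was 48.0, 79.8 and 69.6 at 0, 4 and 16 h in U2OS_WT, with no peak at 20 h, and 75.1, 91.1, 82.7 and 39.4 in U2OS_CHR.

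Some genes had both a member and a retained region. Of the 92 genes with a member at an end, 2 (2.17%) also had a retained region at an end, near the 2.71% of all protein-coding genes, and 10 (10.9%) had 1 in the gene or within 5 kb, where the share of all genes was 5.89%. The 2 were KLF11 and ASS1, which encodes an enzyme of the urea cycle, and at ASS1 the gap between member and retained region was 183 bp. Of the 240 members, 5 lay within 200 bp of a retained region, 10 within 1 kb and 27 within 10 kb. A peak of an 8 h or 12 h list, in any region, lay within 0.1 kb of 2 members, within 1 kb of 13 and within 10 kb of 39. When the members with such a peak within 1 kb were left out, 227 remained.

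The Myc library was not used by the rule. A Myc peak overlapped 36 of the 240 members (15.0%, Wilson 95% interval 11.0 to 20.1), 518 of the 1512 retained regions (34.3%, 31.9 to 36.7) and 6.32% of all merged regions. The intervals of members and retained regions did not overlap, and with 1 Myc library there is no test over samples. The share rose with BMAL1 score among retained regions, and did not rise steadily among members. Among regions of mean percentile under 50, it was 11.9% of members (6.60 to 20.5) and 8.33% of retained regions (3.61 to 18.1). Between 50 and 60 it was 12.5% and 13.1%, between 60 and 70 it was 21.0% and 14.2%, and between 70 and 80 it was 13.8% (5.50 to 30.6) and 23.8% (19.8 to 28.5). The intervals overlapped in each of these 4 bands. Above 80 there was 1 member, while the 683 retained regions had a share of 54.2%. The retained regions with a peak in 1 of the 4 libraries of 8 and 12 h had a share of 16.1% (12.7 to 20.2), those with 2 had 29.0%, those with 3 had 41.8% and those with 4 had 69.8%.

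**Figure D5:**
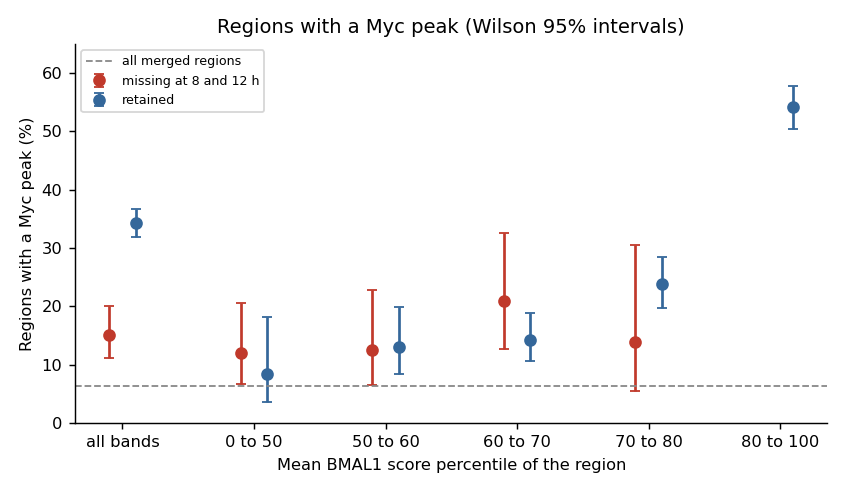
Percentage of regions that overlap a Myc peak (vertical axis) for members (red) and retained regions (blue), for all regions and by band of mean BMAL1 score percentile, with Wilson 95% intervals; the dashed line marks the 6.32% of all merged regions. The overall shares of 15.0% and 34.3% lie apart, and in each band up to 80 the intervals overlap; the single member above 80 is not drawn.

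Myc peaks at members were of middling score as well. Their percentile in the Myc list of 2487 peaks had a median of 64.5, against 79.6 at retained regions. A Myc peak with a score of at least 100 stood at 4 members (1.67%), 10.2% of retained regions and 1.02% of all. Members at gene ends had a Myc peak in 15 of 77 cases (19.5%, 12.2 to 29.7) and the others in 21 of 163 (12.9%, 8.58 to 18.9), so the intervals overlapped.

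The Myc peaks of high score at members were at genes of several functions, and a member not reported here had a higher score than those that follow. The highest reported was at the shared end of RANBP1, which regulates the nuclear transport factor Ran, and TRMT2A, a tRNA methyltransferase, with a score of 168.73 and rank 49. There the BMAL1 percentile was 51.2, 71.6 and 14.8 at 0, 4 and 20 h in U2OS_WT and 77.1, 75.3, 69.5 and 62.2 at 0, 4, 16 and 20 h in U2OS_CHR. ZNF131 had a Myc score of 115.47 and rank 162. At ZNF131 the BMAL1 percentile was 53.6, 64.0, 76.8 and 58.2 in U2OS_WT and 89.8, 94.3, 95.8 and 83.7 in U2OS_CHR, so each U2OS_CHR value was above each U2OS_WT value. Among the members reported here, SLC25A26 followed with a Myc score of 97.68, and its peak covers both E-boxes printed above. ADSL, an enzyme of purine synthesis, had 93.55, TFAP4, a helix-loop-helix transcription factor, had 85.5, and HIVEP2, a zinc-finger transcription factor, had 85.09.

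Between the lines, the direction of the difference in member scores varied over the times. Among the members with a peak in both lines, the median percentile at 0 h was 54.0 in U2OS_WT and 59.9 in U2OS_CHR (163 members), and at 4 h it was 67.9 and 62.0 (217 members). At 16 h it was 49.9 and 65.4 (143 members), and at 20 h it was 66.1 and 57.9 (175 members). U2OS_CHR was higher at 0 h and 16 h and lower at 4 h and 20 h. These percentiles come from lists of unlike length. The U2OS_WT and U2OS_CHR lists held 3397 and 5612 peaks at 0 h, and 5287 and 8240 at 4 h. At 16 h they held 2794 and 9391, and at 20 h 6012 and 6873. The part of list length in the differences between lines was not tested. The mean difference, U2OS_CHR minus U2OS_WT, was 1.78 ± 11.0 (SD, n = 4 times), with p = 0.875 in a two-sided exact paired sign-flip permutation test and 0.875 after adjustment over 2 tests. The smallest p that 4 pairs allow is 0.125. The same lists chose the members, and the rule bore unequally on the lines. The 8 h and 12 h lists held 337 and 1808 peaks in U2OS_WT but 2429 and 3919 in U2OS_CHR. The p-values of these line comparisons therefore describe the chosen regions, and cannot decide whether BMAL1 binding differs between the lines. Leaving out 16 h turned the mean difference to -2.76. Among the 121 regions that met the rule with a score of at least 100, of which 9 were members, U2OS_CHR was higher at all 4 times, by a mean of 13.8 ± 15.4 (SD, n = 4 times), with an exact permutation p of 0.125.

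Median peak width was 332 bp in U2OS_WT and 394 bp in U2OS_CHR at 0 h, 366 and 457 bp at 4 h, 335 and 423 bp at 16 h, and 409 and 376 bp at 20 h. Peaks were wider in U2OS_CHR at 3 of the 4 times, by a mean of 52 ± 58.1 bp (SD, n = 4 times), with p = 0.25 in the same exact permutation test and 0.5 after adjustment. The widths too are of peaks in the lists that chose the members, so the same limit holds for this test.

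Single members differed widely between the lines. These were picked by the size of that difference, so the values describe them and carry no test. Here too the percentiles come from lists of unlike length. The largest difference toward U2OS_CHR, 68.8 percentile points between the means of the lines, was at an end of ALCAM, the gene of a cell adhesion molecule (chr3:105366249-105367046). There the percentile was 11.3, 21.7 and 8.91 at 0, 4 and 20 h in U2OS_WT and 83.1, 73.8, 94.4 and 79.6 at 0, 4, 16 and 20 h in U2OS_CHR. Next were regions in the carboxypeptidase gene CPA5 with 58.4, near LOC124905938 with 52.2, in LMNA, the gene of lamin A and C, with 52.1, and in ATXN7L1 with 47.4. In LMNA the percentile in U2OS_WT did not exceed 13.4.

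The largest difference in the other direction, -57.1, was 60.6 kb from the nearest gene end, that of GAREM1 (chr18:32531219-32531762). Its percentile was 76.3, 86.8 and 91.6 at 4, 16 and 20 h in U2OS_WT and 17.9, 3.34 and 62.3 at 0, 4 and 16 h in U2OS_CHR. The values of the lines do not overlap at this region. Next were a region in RNASET2, a ribonuclease gene, with -52.3, a region in GSE1 with -47.2, a region whose nearest gene is RNF144A with -44.3, and the SIN3A region with -42.2.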

How the data were processed

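Of 16 samples, 13 had peak lists, 12 for BMAL1 and 1 for Myc. The deposited lists, 1 per library, give each peak's coordinates and a score. What the authors' score measures is not given in the sources used here; the lowest was 50. MACS 1.4.2, HOMER 4.10.3, bedtools and the build hg38 appear in the submitters' processing notes, with no role stated. For aligner and depth the sources used here give nothing.

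Regions were merged and compared in Python 3.11.15 (NumPy 2.4.6, SciPy 1.17.1, matplotlib 3.10.9). The merge gave the same 20968 regions as bedtools 2.31.1, and 200 of 200 simulated members among 5000 simulated regions were recovered. Genes (20037 protein-coding) and promoter windows (of 15843 of them) came from RefSeq GRCh38.p14. Of 16 clock cofactor and kinase genes, 15 were found, and all genes of the other 10 lists.

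Named are list genes with a member in the gene or within 5 kb, the 10 highest and 3 lowest members by mean percentile, the 8 with the highest Myc score and the 5 largest differences between lines in each direction. Of these, 3 members are not reported here. The members, lists and tests were chosen with earlier results of these data known. Alternatives were a score of at least 100, lists cut to the 12 h or the shortest length, centres within 500 bp, each time left out, 4 of 4 times, a 5 kb window, an overlap of 50% and no pairing by time. The overlap of promoter windows and the alternatives for peak width were added after seeing the data.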

Additional observations from a re-analysis of the deposited data

How the results depend on the processing

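Most of the alternatives left the shares near their values, while the number of regions that met the rule depended on list length and on the times required. The number was 121 with a score of at least 100, of which 9 were among the 240. That minimum applied to every list, those of 8 h and 12 h and of Myc included. In the libraries of 0, 4, 16 and 20 h, the median score of member peaks was 67.0 to 99.8, under that minimum. The number was 38 with lists cut to the 12 h length of their line and 38 with 4 of 4 times required. With all lists cut to the shortest it was 0, which left no shares to give. Without 0, 4, 16 or 20 h, with 2 or 3 of the remaining 3 times required, it was 575, 369, 541 and 436, without 12 h it was 684, and without 8 h it was 282. The share with a Myc peak was 7.44% with a score of at least 100 and 21.1% with lists cut to the 12 h length. The share at gene ends was 39.7% with a score of at least 100, 39.5% with 4 of 4 times, and 41.7% with ends within 5 kb. The line difference in percentile turned to -3.60 (exact permutation p = 0.625) when percentiles were taken among peaks of regions of 4 or more libraries and to -2.76 (p = 0.5) without 16 h, was 13.8 (p = 0.125, higher in U2OS_CHR at all 4 times) with a score of at least 100, and lay between 0.43 and 5.11 in the other alternatives. The cause of these shifts was not tested. Without pairing by time, exact permutation p was 0.771 for the percentile and 0.114 for peak width. All these p-values come from regions chosen with the same lists. Width differences lay between 39 and 80.3 bp in the alternatives run. The E-box share was 36.5% for genes with an end inside a member and 39.5% for overlapped windows. Depth is unknown, so an absent peak cannot be told apart from binding that a list of that length does not reach.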
